A study of Mus musculus with 6 samples.

Results

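The genes described here are the intracellular machinery of TNF receptor signalling and of NF-kB: adaptors, kinases, regulators of cell death, ubiquitin enzymes, inhibitors and the NF-kB subunits themselves. The list held 41 genes, chosen by name. Of these, 40 had a row of their own among the 23108 named rows of the table, and Rnf31 appeared only in a row shared with Irf9. All 40 averaged at least 0.5 FPKM (fragments scaled by transcript length and by the size of the library), the minimum for testing, as did 14564 rows in all. Messenger RNA was sequenced from the distal colon of 3 TNFR2-knockout males and 3 wildtype males, all of 8 weeks and labelled as C57Bl/6. The knockout mice lack TNFR2 (TNFR2-/-), a receptor for tumor necrosis factor encoded by Tnfrsf1b. The labels name no tissue restriction of the deletion, no other allele and no treatment. The sources used here do not say which part of the gene was deleted.

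Tumor necrosis factor acts through a pair of receptors. TNFR1, which has a death domain, recruits TRADD, RIPK1, TRAF2 and the ubiquitin ligases cIAP1, cIAP2 and LUBAC, and the ubiquitin chains so formed bring in the TAK1 and IKK kinases, which mark the inhibitor IkB-alpha for destruction and free NF-kB for the nucleus. TNFR2 has no death domain and binds TRAF2 with TRAF1, TRAF3 and the cIAPs. It activates canonical NF-kB and, by relieving the kinase NIK from degradation, the non-canonical branch that processes the NFKB2 precursor. In the gut, epithelial NF-kB restrains death of epithelial cells through caspase-8 and through RIPK3 with MLKL. Several of these genes, among them those for IkB-alpha, A20, cIAP2 and the NF-kB precursors, are themselves NF-kB targets.

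Coordinates are those of the table (mm10). Tnfrsf1b lies on chromosome 4, 145212367 to 145246870. Its level was 1.17, 1.12 and 0.924 FPKM in the knockout libraries, against 7.49, 8.20 and 8.17 FPKM in the wildtype libraries. The targeted transcript was low in all 3 knockout libraries, at 13.5% of the wildtype mean, with no overlap. In limma, a moderated linear model fitted here to log2(FPKM + 1) of all tested genes, its log2 change was -2.11 ± 0.08 (SE) with a Benjamini-Hochberg adjusted p of 7.12e-05. Tnfrsf1a, which encodes the remaining receptor TNFR1, measured 54.4, 46.6 and 51.9 FPKM in knockout and 61.6, 58.2 and 61.0 FPKM in wildtype libraries. All its knockout values lay lower, and its log2 change was -0.24 ± 0.08 (SE) with a limma adjusted p of 0.258. The ligand gene Tnf was near the minimum for testing, at 0.689, 0.550 and 0.423 FPKM in knockout and 0.590, 0.590 and 0.503 FPKM in wildtype libraries.

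Summed FPKM lay between 655274 and 709593 per library, and the stated average depth was 50M reads per sample. Libraries differed in marker RNA of skin and skeletal muscle. Summed over 17 of 18 skin keratinocyte markers, levels were 190.1, 862 and 1545 FPKM in knockout and 1705, 757 and 1775 FPKM in wildtype libraries. Summed over 10 of 11 skeletal muscle markers they were 149.5, 1987 and 1503 FPKM in knockout and 8487, 2607 and 3098 FPKM in wildtype libraries. Knockout library 1 was lowest in both lists, and wildtype library 2 was the lowest wildtype library in both. Colon epithelium markers (15 of 17 found, none at 0) were present throughout, at 7214 to 10610 FPKM in knockout and 7052 to 8992 FPKM in wildtype libraries. In RNA of whole tissue, fewer cells of a type and less RNA per cell cannot be told apart.

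No gene of the pathway was called between the genotypes by the test used, near the share called over all tested genes. With 3 libraries per genotype, a gene that was not called may still have changed. In limma 0 of the 40 were called at an adjusted p under 0.05, against 42 of 14564 tested genes (0.288%), of which 27 rose (0.185%) and 15 fell (0.103%). Without small RNA genes 11 rose and 11 fell, and without wildtype library 2 the numbers were 34 and 40. The lowest adjusted p of the 40 in limma was 0.259. The authors' deposited table gives a q-value under 0.05 to 1.04% of named rows, a wider set than the 14564 tested here. It does so for 0 of the 40, among which Traf3 may not have been tested. The pathway was expressed in all 6 libraries, with means over them from 1.44 FPKM for Rel to 88.0 FPKM for Tradd. Of the 40 genes, 29 averaged between 5 and 25 FPKM. Log2 changes ran from -0.42 for Nfkbie to 0.23 for Tnip1, with 22 above and 18 below 0 and a median of 0.01. With single libraries left out, 15 to 28 were above 0 and the median ran from -0.0344 to 0.0536. Over all tested genes 6211 were above and 8353 below 0, and the median was -0.03.

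The intervals from this fit give a range for the change of each gene on the log2(FPKM + 1) scale. For all 40 the 95% interval of the log2 change from limma lay between -1 and 1, and for 36 it lay between -0.5 and 0.5. The bounds farthest from 0 were -0.75 for Nfkbie and 0.58 for Mlkl. These intervals are per gene, are not adjusted for the number of genes, and are on the log2(FPKM + 1) scale, which understates changes of low genes such as Rel, Traf1 and Nfkbie. They do not limit the change in FPKM itself for such genes. With 0.1 added to FPKM in place of 1, the log2 change of Nfkbie was -0.589, and its interval in that fit is not given here. The median coefficient of variation of the members between libraries of a genotype was 7.33% in knockout and 7.4% in wildtype libraries. Over all tested genes it was 9.81% and 8.85%. These medians were not matched for expression level. Tested genes go down to a mean of 0.5 FPKM, and the lowest member averaged 1.44 FPKM.

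**Figure D1:**
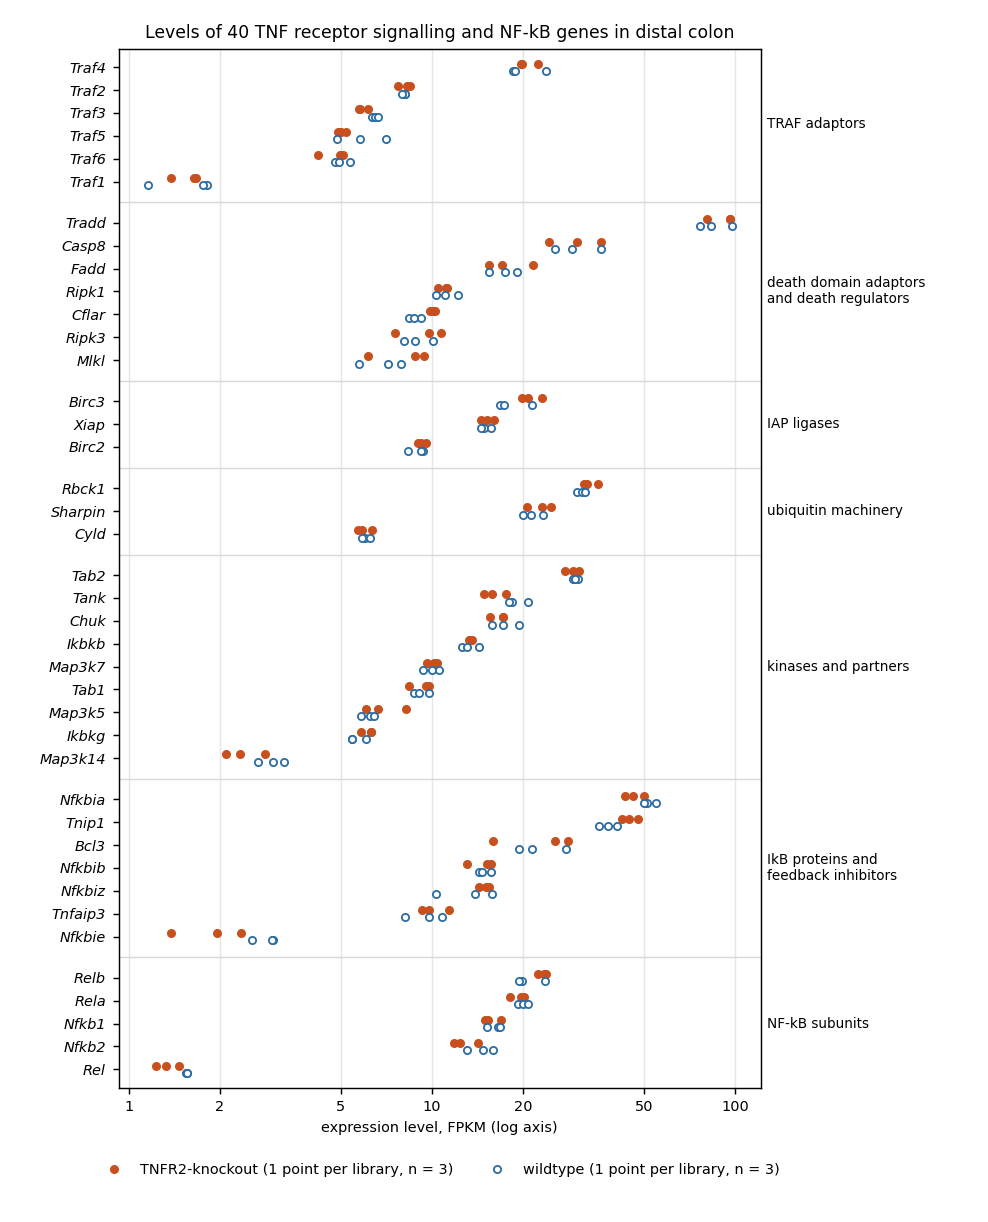
Expression of the 40 genes in FPKM on a log axis, 1 point per library, filled for TNFR2-knockout and open for wildtype (n = 3 each), grouped by role and ordered by mean level. Levels run from 1.44 FPKM for Rel to 88.0 FPKM for Tradd, and points of the genotypes interleave for most genes.

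Knockout and wildtype libraries did not overlap for 6 of the 40 genes, 15% of them, against 21.8% of all tested genes. Cflar and Tnip1 lay higher in all knockout libraries (9.3% of all tested genes did so), and Nfkbie, Tank, Traf3 and Rel lay lower (12.5% of all tested genes). With 3 against 3 libraries an exact two-sided permutation test of a single gene cannot go below p = 0.1. At an unadjusted limma p under 0.05 there were 4 genes, Nfkbie, Cflar, Tnip1 and Tank, 10% of the 40 against 16.2% of all tested genes. The separated share of all tested genes moved as well when libraries were left out. It was 39.2% without knockout library 2, where 27.5% of the 40 genes (11) were separated. Without wildtype library 2 it was 45.4%, against 35% of the 40 (14), and without wildtype library 3 it was 26.4%, against 25% of the 40 (10). Dividing the libraries by TMM or upper quartile factors gave 9 separated genes, 22.5% of the 40, against 22.5% and 22.3% of all tested genes.

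**Figure D2:**
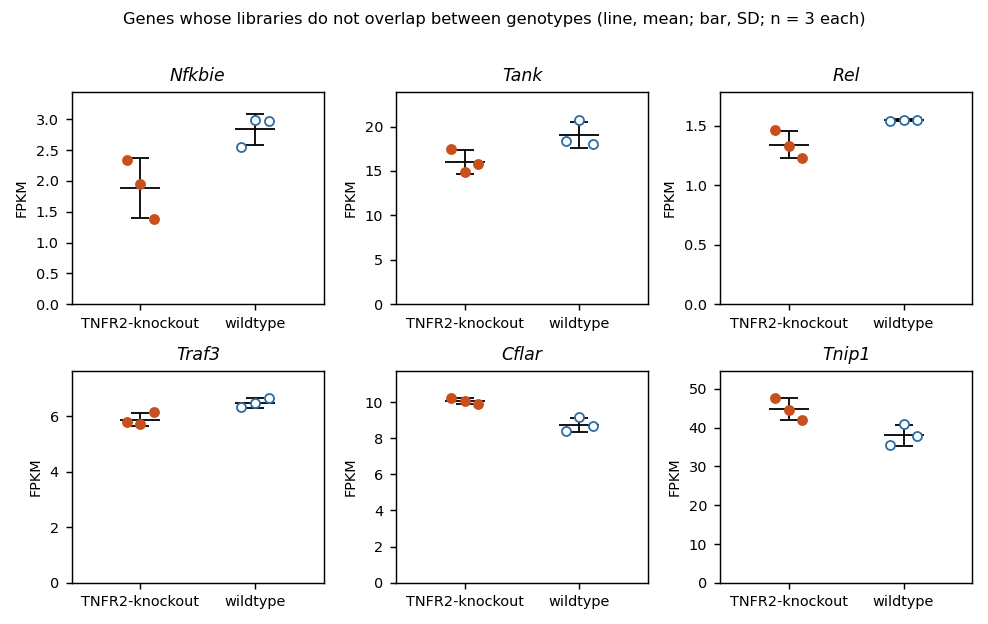
FPKM of the 6 genes whose libraries do not overlap between the genotypes, with points for libraries, a line for the mean and a bar for the SD (n = 3 each). Nfkbie, Tank, Rel and Traf3 are lower and Cflar and Tnip1 higher in all 3 knockout libraries, with means from 66.6% (Nfkbie) to 118% (Tnip1) of wildtype.

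Among the TRAF adaptors, which link receptors to kinases and ubiquitin ligases, 3 genes had log2 changes above and 3 below 0, and the median was -0.03. Traf4, a TRAF of epithelial cells, was the most highly expressed. It measured 19.8, 19.7 and 22.3 FPKM in knockout and 18.4, 23.7 and 18.8 FPKM in wildtype libraries, with the highest value in a wildtype library and full overlap. Its deposited locus also spans Fam222b. Traf3 (chromosome 12, 111166423 to 111267152), which holds NIK for degradation and so restrains non-canonical NF-kB, measured 5.78, 5.72 and 6.15 FPKM in knockout and 6.32, 6.47 and 6.65 FPKM in wildtype libraries. All knockout values were lower, at 90.8% of the wildtype mean, and the log2 change was -0.12 ± 0.07 (SE; limma, Benjamini-Hochberg adjusted p = 0.397). The authors' deposited table gives Traf3 group values of 5.89 FPKM in knockout and 6.50 FPKM in wildtype. Beside them it lists a fold change of 0 with a p-value of 1, which may mark a gene not tested.

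Traf2, the adaptor shared by both TNF receptors, overlapped between the genotypes. It averaged 8.17 ± 0.383 FPKM in knockout and 8.07 ± 0.115 FPKM in wildtype libraries (SD, n = 3 each), and its 95% interval of the log2 change ran from -0.14 to 0.17. Traf1, a TRAF without a RING domain that pairs with TRAF2 on TNFR2, was the lowest at 1.56 ± 0.158 FPKM in knockout and 1.58 ± 0.366 FPKM in wildtype libraries (SD, n = 3 each). Traf5 averaged 5.03 ± 0.151 and Traf6, the adaptor of Toll-like and interleukin-1 receptors, 4.75 ± 0.472 FPKM in knockout libraries. In wildtype libraries the means were 5.89 ± 1.09 FPKM for Traf5 and 5.03 ± 0.281 FPKM for Traf6 (SD, n = 3 each). Beside the log2 change of -2.11 of the receptor gene, those of the 6 adaptor genes lay between -0.18 and 0.02, and 0 of them were called.

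The death domain adaptors and death regulators included the most highly expressed gene of the pathway. Tradd, the adaptor that TNFR1 binds, measured 95.9, 80.4 and 95.7 FPKM in knockout and 76.1, 97.1 and 82.9 FPKM in wildtype libraries, a range that overlapped throughout. The deposited locus of Tradd also spans D230025D16Rik and B3gnt9, and the sources used here do not say how reads were divided among overlapping transcripts. Cflar (chromosome 1, 58711444 to 58758882) encodes c-FLIP, an inhibitor of caspase-8. It measured 10.2, 10.04 and 9.87 FPKM in knockout and 8.39, 9.16 and 8.70 FPKM in wildtype libraries. The knockout values were all higher and close to each other, at 115% of the wildtype mean, and the log2 change was 0.18 ± 0.06 (SE; limma, Benjamini-Hochberg adjusted p = 0.273).

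The other death genes overlapped between the genotypes. Casp8, the initiator caspase of this pathway, averaged 30.1 ± 5.90 FPKM in knockout and 30.1 ± 5.42 FPKM in wildtype libraries (SD, n = 3 each), which gives a 95% interval for the log2 change of -0.41 to 0.41. Mlkl, the pore-forming effector of necroptosis, averaged 8.12 ± 1.72 FPKM in knockout and 6.93 ± 1.09 FPKM in wildtype libraries. Its kinase gene Ripk3 averaged 9.33 ± 1.63 FPKM in knockout and 8.96 ± 1.012 FPKM in wildtype libraries (SD, n = 3 each). Ripk1, the kinase at which survival and death signals divide, was steadier, at 10.9 ± 0.405 FPKM in knockout and 11.2 ± 0.966 FPKM in wildtype libraries. Fadd, the adaptor that recruits caspase-8, averaged 17.9 ± 3.14 FPKM in knockout and 17.3 ± 1.87 FPKM in wildtype libraries. The deposited locus of Ripk1 also spans Serpinb6a and Nqo2. In this group 5 of 7 genes had log2 changes above 0, with a median of 0.05, and 0 were called.

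The inhibitor of apoptosis genes encode ubiquitin ligases, of which cIAP1 and cIAP2 act in the TNF receptor complexes. Birc3 (cIAP2) measured 23.0, 19.9 and 20.6 FPKM in knockout and 16.8, 21.3 and 17.2 FPKM in wildtype libraries. Wildtype library 2 lay within the knockout range and the other wildtype libraries below it. The log2 change was 0.19 ± 0.11 (SE; limma, Benjamini-Hochberg adjusted p = 0.400). Birc2 (cIAP1), its close relative on the same chromosome, averaged 9.25 ± 0.287 FPKM in knockout and 8.95 ± 0.536 FPKM in wildtype libraries. Xiap, which blocks caspases directly, averaged 15.2 ± 0.728 FPKM in knockout and 15.0 ± 0.595 FPKM in wildtype libraries (SD, n = 3 each).

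Of the ubiquitin machinery, Rbck1, which encodes the LUBAC subunit HOIL-1, was highest, with 32.3, 31.6 and 35.1 FPKM in knockout and 30.1, 31.1 and 31.8 FPKM in wildtype libraries. The ranges touched, with knockout library 2 just below wildtype library 3. Sharpin, another LUBAC subunit, averaged 22.7 ± 2.03 FPKM in knockout and 21.4 ± 1.66 FPKM in wildtype libraries. Cyld, the deubiquitinase that removes such chains, averaged 5.97 ± 0.309 FPKM in knockout and 6.03 ± 0.181 FPKM in wildtype libraries (SD, n = 3 each). The row shared by Irf9 and Rnf31, which encodes the catalytic LUBAC subunit HOIP, measured 22.2, 16.6 and 18.5 FPKM in knockout and 15.6, 17.7 and 17.4 FPKM in wildtype libraries. Reads of these neighbours cannot be told apart in that row, and its ranges overlapped.

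Of the 9 kinases and their partners, 5 had log2 changes above and 4 below 0, and the median was 0.01. Tab2, a ubiquitin-binding partner of TAK1, measured 30.4, 27.4 and 29.1 FPKM in knockout and 30.3, 29.1 and 29.5 FPKM in wildtype libraries, interleaved. Ikbkb, the kinase of the canonical branch, averaged 13.4 ± 0.127 FPKM in knockout and 13.3 ± 0.891 FPKM in wildtype libraries (SD, n = 3 each). Chuk, the IKK kinase that also serves the non-canonical branch, averaged 16.6 ± 0.928 FPKM in knockout and 17.4 ± 1.84 FPKM in wildtype libraries. Map3k7 (TAK1) and its partner Tab1 had 95% intervals of the log2 change of -0.16 to 0.18 and -0.18 to 0.20. Ikbkg, the regulatory IKK subunit NEMO, averaged 6.13 ± 0.258 FPKM in knockout and 5.64 ± 0.348 FPKM in wildtype libraries, and Map3k5 (ASK1) 6.95 ± 1.13 FPKM in knockout and 6.18 ± 0.304 FPKM in wildtype libraries. The deposited locus of Ikbkg also spans G6pdx.

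Tank (chromosome 2, 61578585 to 61654169), a TRAF-binding scaffold named for NF-kB activation, measured 17.5, 14.8 and 15.7 FPKM in knockout and 18.4, 20.8 and 18.0 FPKM in wildtype libraries. All knockout values lay lower, at 84.1% of the wildtype mean, and the log2 change was -0.24 ± 0.09 (SE; limma, Benjamini-Hochberg adjusted p = 0.279). Map3k14, which encodes NIK, the kinase at the head of the non-canonical branch, was low and overlapped between the genotypes. It averaged 2.41 ± 0.365 FPKM in knockout and 2.97 ± 0.293 FPKM in wildtype libraries (SD, n = 3 each), and the log2 change was -0.22 ± 0.11 (SE; limma, Benjamini-Hochberg adjusted p = 0.355).

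The IkB proteins and feedback inhibitors held both the largest positive and the largest negative log2 change of the 40 genes. Nfkbie (chromosome 17, 45555715 to 45563168), which encodes IkB-epsilon, measured 2.34, 1.95 and 1.37 FPKM in knockout and 2.55, 2.99 and 2.97 FPKM in wildtype libraries. Every knockout value lay below every wildtype value, and knockout library 3 was the lowest of the 6. The knockout mean was 66.6% of the wildtype mean and the log2 change -0.42 ± 0.14 (SE; limma, Benjamini-Hochberg adjusted p = 0.259). Without knockout library 3 the log2 change was -0.29. Nfkbie is expressed by lymphocytes and macrophages among other cells. Beside it, 9 of 14 macrophage and monocyte markers were lower and 1 was higher at an unadjusted limma p under 0.05 (9.91% and 6.3% of all tested genes). Their summed level was 322 to 452 FPKM in knockout and 518 to 582 FPKM in wildtype libraries. B cell markers summed to 3.42 to 18.7 FPKM in knockout and 7.41 to 20.6 FPKM in wildtype libraries, lowest in knockout library 3. Of the 7 B cell markers tested, 0 had an unadjusted limma p under 0.05 and 0 were separated between the genotypes. T cell markers (9 of 10 found, 4 tested) summed to 4.14 to 6.46 FPKM in knockout and 6.08 to 8.64 FPKM in wildtype libraries, ranges that overlapped. Of the 4, 2 were lower at an unadjusted limma p under 0.05 (9.91% of all tested genes). Both lay lower without overlap, as did 12.5% of all tested genes. No macrophage, B cell or T cell marker found was at 0 in every library, and their part in the Nfkbie values was not tested.

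Tnip1 (chromosome 11, 54910589 to 54962940) encodes ABIN-1, a ubiquitin-binding partner of A20 that restrains NF-kB and cell death. It measured 47.6, 44.7 and 42.1 FPKM in knockout and 35.5, 40.8 and 37.9 FPKM in wildtype libraries, higher in all knockout libraries. The knockout mean was 118% of the wildtype mean and the log2 change 0.23 ± 0.08 (SE; limma, Benjamini-Hochberg adjusted p = 0.274). Nfkbia, which encodes IkB-alpha, the rapidly resynthesised inhibitor, was the most highly expressed of this group, with 49.9, 45.8 and 43.3 FPKM in knockout and 51.0, 49.9 and 54.6 FPKM in wildtype libraries. Knockout library 1 just exceeded wildtype library 2, so the ranges met, and the log2 change was -0.16 ± 0.08 (SE; limma, Benjamini-Hochberg adjusted p = 0.360). The deposited locus of Nfkbia also spans Ppp2r3c, Prorp and Psma6. Tnfaip3, which encodes the ubiquitin-editing enzyme A20, averaged 10.1 ± 1.09 FPKM in knockout and 9.56 ± 1.35 FPKM in wildtype libraries (SD, n = 3 each).

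The other IkB genes overlapped between the genotypes. Bcl3, a co-activator bound to NF-kB dimers, averaged 23.2 ± 6.43 FPKM in knockout and 22.8 ± 4.28 FPKM in wildtype libraries (SD, n = 3 each), the highest coefficient of variation of the 40 genes in knockout libraries at 27.7%. Nfkbiz, a nuclear IkB expressed in epithelium, averaged 14.9 ± 0.563 FPKM in knockout and 13.3 ± 2.75 FPKM in wildtype libraries, with a low value of 10.3 FPKM in wildtype library 1. Nfkbib, encoding IkB-beta, averaged 14.6 ± 1.38 FPKM in knockout and 14.8 ± 0.704 FPKM in wildtype libraries, at a deposited locus that also spans Ccer2. Of the 7 genes of this group, 3 (Tnip1, Nfkbiz and Tnfaip3) had log2 changes above 0, and 0 were called. The 4 below 0 were Nfkbia, Nfkbib, Nfkbie and Bcl3, with Bcl3 at -9.48e-05.

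Of the NF-kB subunits, 1 of 5 had a log2 change above 0 and 4 below, with a median of -0.05. Relb, the partner of the processed NFKB2 protein in the non-canonical branch, was highest, with 23.8, 22.3 and 23.4 FPKM in knockout and 19.8, 23.5 and 19.4 FPKM in wildtype libraries. Wildtype library 2 lay among the knockout values. Rel (chromosome 11, 23736860 to 23771093), the subunit c-Rel of lymphoid and myeloid cells, was the lowest of all 40 genes. It measured 1.46, 1.33 and 1.23 FPKM in knockout and 1.54, 1.55 and 1.55 FPKM in wildtype libraries, lower in all knockout libraries. Its log2 change was -0.12 ± 0.08 (SE; limma, Benjamini-Hochberg adjusted p = 0.468), and the spread of its wildtype values, a coefficient of variation of 0.344%, was the smallest of the 40 genes.

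Rela, the main transactivating subunit, averaged 19.2 ± 1.07 FPKM in knockout and 19.96 ± 0.787 FPKM in wildtype libraries. Nfkb1, the precursor of p50, averaged 15.7 ± 1.03 FPKM in knockout and 16.1 ± 0.805 FPKM in wildtype libraries, and Nfkb2, the precursor of p52, 12.8 ± 1.24 FPKM in knockout and 14.6 ± 1.46 FPKM in wildtype libraries (SD, n = 3 each). The deposited locus of Nfkb2 also spans Psd. In every knockout library the order of levels was Relb, Rela, Nfkb1, Nfkb2 and Rel. In wildtype library 3 Rela exceeded Relb, and in wildtype libraries these neighbours overlapped. Of the summed FPKM of the 5 subunits, Relb made up 31.4%, 32.4% and 32.5% in knockout and 27.6%, 30.3% and 27.7% in wildtype libraries. Nfkb2 made up 18.7%, 17.2% and 17.1% in knockout and 20.6%, 20.5% and 18.6% in wildtype libraries. Relb shares did not overlap and Nfkb2 shares did. The shares add up to 100% in each library, so they do not move independently, and they were examined after the levels were seen.

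**Figure D3:**
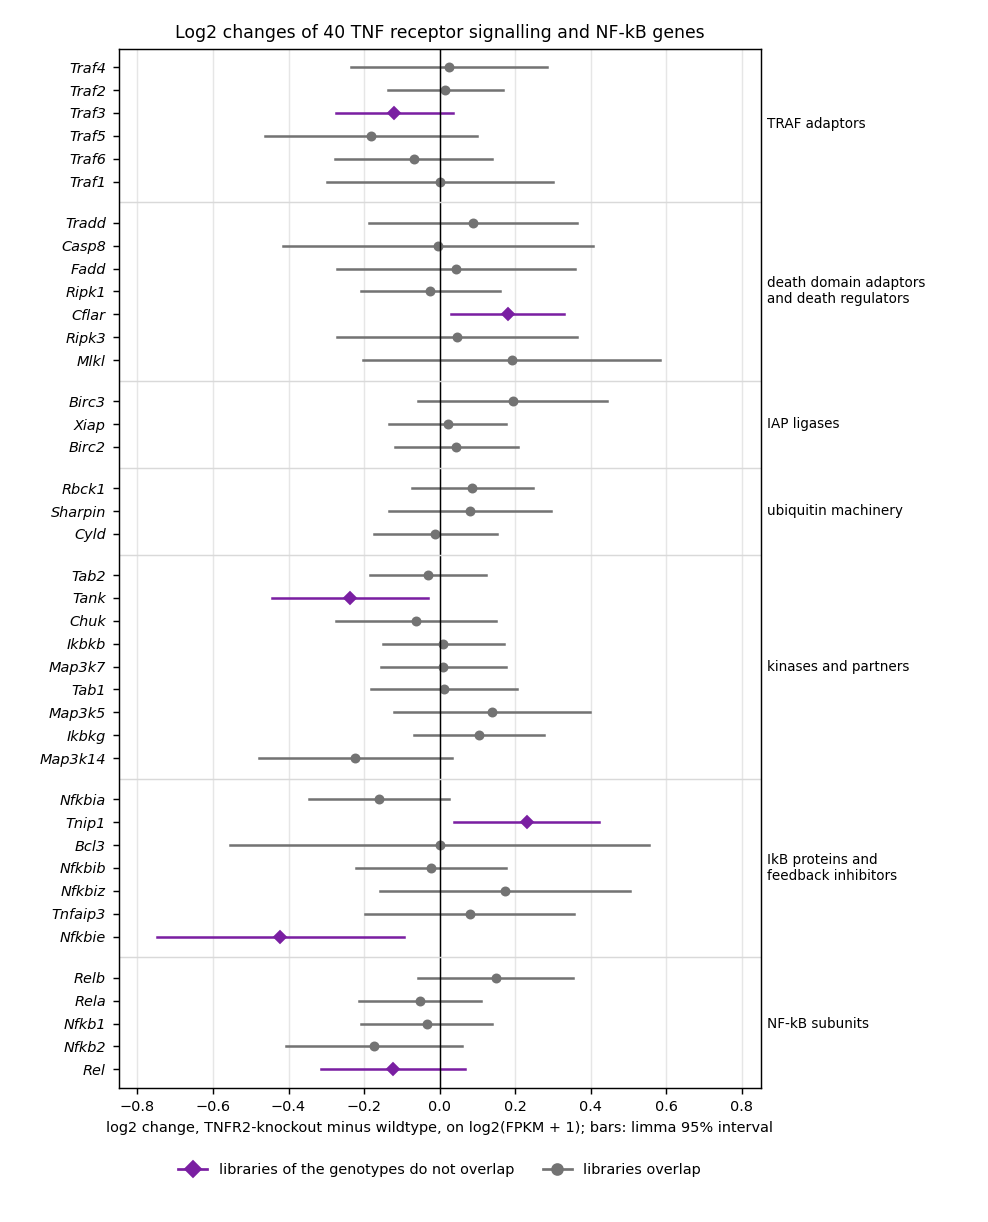
Log2 change of each gene on the log2(FPKM + 1) scale, TNFR2-knockout minus wildtype, with the 95% interval from limma; diamonds mark the 6 genes whose libraries do not overlap. The intervals of Nfkbie and Tank lie below 0 and those of Cflar and Tnip1 above it before adjustment, and none was called after adjustment.

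Libraries of the same genotype also differed, and in a shared pattern. Knockout library 1 held the highest knockout value in 30 of the 40 genes (75%) and wildtype library 2 the highest wildtype value in 26 (65%). Over all tested genes these shares were 39.3% and 43.2%. Both held at once in 20 of the 40 genes (50%), against 23.8% of all tested genes. Knockout library 2 was lowest among knockout libraries in 29 genes (72.5%), against 47.6% of all tested genes. Wildtype library 1 was lowest among wildtype libraries in 25 (62.5%), against 39.9% of all tested genes. Summed over the 40 genes, levels were 711, 619 and 675 FPKM in knockout and 616 (library 1), 707 (library 2) and 646 (library 3) FPKM in wildtype libraries.

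Casp8 and Bcl3, named here after their values were seen, show the pattern. Casp8 measured 36.1, 24.3 and 29.9 FPKM in knockout and 25.3, 36.0 and 29.0 FPKM in wildtype libraries. Bcl3 measured 28.1, 15.9 and 25.5 FPKM in knockout and 19.3, 27.6 and 21.4 FPKM in wildtype libraries. In both, knockout library 1 and wildtype library 2 were high by nearly the same amount, and the genotype means were close. The same libraries were highest of their genotype in colon epithelium markers, which summed to 10610, 7214 and 9250 FPKM in knockout and 7052, 8992 and 7077 FPKM in wildtype libraries. They were lowest of their genotype in smooth muscle markers, at 6928, 9616 and 9393 FPKM in knockout and 12070, 7521 and 10750 FPKM in wildtype libraries, and in the skin keratinocyte and skeletal muscle markers given above. The part of tissue makeup in these values was not tested.

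**Figure D4:**
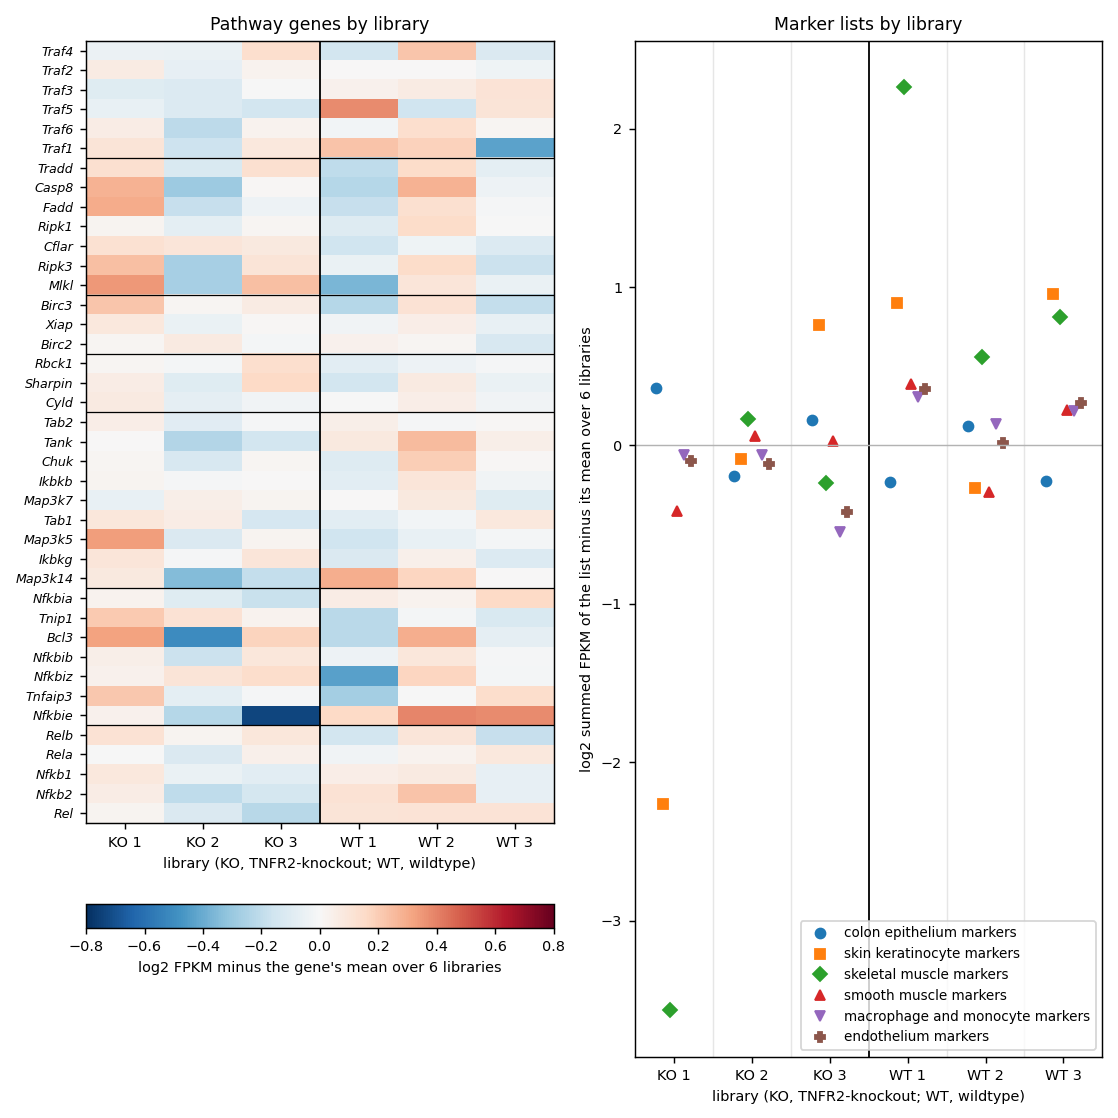
Left, each gene's log2 FPKM in each library minus its mean over the 6 libraries, with lines between role groups; right, the same for summed FPKM of 6 marker lists. Knockout library 1 and wildtype library 2 are high for most pathway genes and for colon epithelium markers, and lowest of their genotype for skin, skeletal muscle and smooth muscle markers.

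The split of the genes into higher and lower in the knockout differed with these adjustments and with scaling. With the mean of the skin keratinocyte markers as a covariate, 14 of the 40 log2 changes were above 0 in place of 22, and with only knockout libraries 2 and 3 and wildtype library 2, whose skin marker sums were 862, 1545 and 757 FPKM, there were 7. These are 35% and 17.5% of the 40, while the share above 0 over all tested genes was 40.2% with the covariate and 40.8% with the 3 libraries. With TMM factors 27 (67.5%) and with upper quartile factors 29 (72.5%) were above 0, in place of 55%, while the share over all tested genes became 49% and 51.6% in place of 42.6%. The log2 changes of Nfkbie, Tank, Traf3 and Rel were below 0 and those of Cflar and Tnip1 above 0 in each of these fits. With the covariate the unadjusted limma p was 0.00218 for Nfkbie and 0.00825 for Tank, against 0.101 for Cflar and 0.124 for Tnip1. In that fit 0 of the 40 genes were higher and 4 lower at an unadjusted limma p under 0.05. These are 10% of the 40, near the 10.1% of all tested genes. In each of these fits 0 of the 40 were called in limma.

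Promoters of the separated genes are given because NF-kB controls part of its own machinery. RefSeq windows (GRCm38.p6, the assembly of mm10), from 250 bases before to 50 after an annotated start, were found for 34 of the 41 genes. A match to the kappa-B consensus on either strand was found for 11 of these 34 genes (32.4%), against 5.14% of all genes with a window. Matches may overlap each other. A match describes letters and not binding, and a window without one says nothing of NF-kB. The 4 windows below are of separated genes with a match, each on the strand of the gene, with the matches in capitals.
Tnip1, chr11:54962891-54963190, minus strand: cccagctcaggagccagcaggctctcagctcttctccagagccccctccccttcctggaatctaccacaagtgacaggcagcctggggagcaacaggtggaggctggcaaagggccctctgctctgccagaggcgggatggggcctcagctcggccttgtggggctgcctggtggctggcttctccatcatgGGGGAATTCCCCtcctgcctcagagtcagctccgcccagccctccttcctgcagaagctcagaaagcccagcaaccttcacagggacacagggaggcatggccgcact
Nfkbie, chr17:45555450-45555749, plus strand: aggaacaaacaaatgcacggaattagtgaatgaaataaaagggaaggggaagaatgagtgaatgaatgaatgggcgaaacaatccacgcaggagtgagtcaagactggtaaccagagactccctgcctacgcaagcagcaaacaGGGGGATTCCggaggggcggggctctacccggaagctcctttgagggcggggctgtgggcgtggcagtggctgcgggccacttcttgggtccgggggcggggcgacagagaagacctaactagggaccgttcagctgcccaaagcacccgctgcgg
Rel, chr11:23770920-23771219, minus strand: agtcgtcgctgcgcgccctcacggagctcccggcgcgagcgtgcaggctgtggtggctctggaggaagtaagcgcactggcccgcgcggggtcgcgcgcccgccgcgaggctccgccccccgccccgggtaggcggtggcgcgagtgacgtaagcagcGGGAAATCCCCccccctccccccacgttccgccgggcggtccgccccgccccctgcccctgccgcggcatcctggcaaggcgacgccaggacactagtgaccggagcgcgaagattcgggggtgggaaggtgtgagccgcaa
Traf3, chr12:111166120-111166419, plus strand: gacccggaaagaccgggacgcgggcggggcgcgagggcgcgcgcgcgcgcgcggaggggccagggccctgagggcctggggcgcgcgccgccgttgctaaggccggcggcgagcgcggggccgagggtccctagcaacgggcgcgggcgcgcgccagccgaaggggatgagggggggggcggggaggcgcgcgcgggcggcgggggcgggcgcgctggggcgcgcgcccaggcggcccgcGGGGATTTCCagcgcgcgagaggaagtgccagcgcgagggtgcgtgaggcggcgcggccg
Tnip1 held 3 overlapping matches that begin 58, 57 and 56 bases before the start, Rel 2 overlapping matches at 92 and 91 bases, Nfkbie 1 at 106 bases and Traf3 1 at 10 bases. Of these 4 genes Tnip1 lay higher and the others lower in the knockout. Tank held a match before 2 of its 4 annotated starts, and Cflar held none in its window. The same consensus matched the windows of Bcl3, Cyld, Map3k7, Nfkb2, Nfkbia and Tnfaip3, which include genes with log2 changes on either side of 0 and none whose libraries were separated.

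Of 53 rows for 50 other genes of the pathway (Traf3ip2 has 4), 6 lay higher and 10 lower in all knockout libraries without overlap (9.3% and 12.5% of all tested genes). In limma 0 were called, 3 were higher and 4 lower at an unadjusted limma p under 0.05 (6.3% and 9.91% of all tested genes), and the median log2 change was -0.04. Rnf11, Tnip3 and Ripk2 were among the 4 with the smallest p. Rnf11, part of the A20 complex, measured 38.9, 35.9 and 38.6 FPKM in knockout and 49.2, 44.1 and 44.1 FPKM in wildtype libraries, lower in all knockout libraries (limma, Benjamini-Hochberg adjusted p = 0.222). Tnip3, a relative of Tnip1, averaged 3.83 ± 0.677 FPKM in knockout and 2.62 ± 0.602 FPKM in wildtype libraries, and Ripk2, the kinase of NOD receptors, 3.26 ± 0.355 FPKM in knockout and 4.06 ± 0.274 FPKM in wildtype libraries (SD, n = 3 each).

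NF-kB target genes outside the machinery mostly had log2 changes below 0. Of 27 tested rows (Cxcl5 has 2), 23 had log2 changes below 0, against 8353 of all 14564 tested genes. The median was -0.22 against -0.03 over all tested genes, and none was called in limma. The 4 above 0 were Irf1, Junb, Cxcl1 and 1 row of Cxcl5. This list was chosen with earlier results of these data known. At an unadjusted limma p under 0.05, 9 were lower (9.91% of all tested genes) and 0 higher (6.3%). The 4 with the smallest p were Ccl2, Ccl7, Icam1 and Vcam1. Ccl2, a monocyte chemokine, averaged 41.2% of its wildtype mean in knockout libraries and came nearest to the threshold (limma, Benjamini-Hochberg adjusted p = 0.0584), and Ccl7, its neighbour, had a limma adjusted p of 0.141. Icam1, a leukocyte adhesion molecule, measured 3.73, 3.69 and 2.57 FPKM in knockout and 5.92, 4.997 and 6.01 FPKM in wildtype libraries, and Vcam1, another, averaged 5.21 ± 0.820 FPKM in knockout and 7.89 ± 0.599 FPKM in wildtype libraries (SD, n = 3 each). Macrophage and endothelium markers were lower beside them: endothelium markers summed to 53.6 to 67.1 FPKM in knockout and 72.5 to 91.9 FPKM in wildtype libraries, with 5 of 7 lower at an unadjusted limma p under 0.05 and none at 0. Their part in the target genes was not tested.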

How the data were processed

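Per the file headers, the deposited table gives FPKM per gene for each of the 6 libraries and for each genotype, with p-values, adjusted p-values and log2 fold changes of the authors' own test. Per the series' design text, reads were aligned with Tophat2 and Bowtie2, assembled with Cufflinks and tested with Cuffdiff 2. Per the submitters' processing notes the build was mm10. Versions, annotation, strandedness and how libraries were scaled were not given in the sources used here. FPKM are not read counts, so depth is unknown and no counting interval was computed. The test was limma (version 3.58.1, R 4.3.3) on log2(FPKM + 1), with a trend on mean level, robust moderation and Benjamini-Hochberg adjustment at 0.05, over named rows with a mean of at least 0.5 FPKM. Rows with no gene name (6.13% of rows, 17.7% of summed FPKM) were left out. TMM factors were computed on FPKM by a script. The fit was tested on simulated data, and the outcome is not reported here. The simulated libraries were drawn independently, without the pattern shared between genes that the real libraries show. Values in every library are given for genes whose groups do not overlap, with an unadjusted p under 0.05, or highest in their role group; other genes are given by group values, and of the other lists the 4 with the smallest p, of which 1 is not reported here. The genes and lists were chosen with earlier results of these data known. Per the labels the libraries of a genotype are separate samples with n = 3 each. Alternatives were other pseudocounts, filters and scaling, no small RNA genes, a skin covariate, the replicate number as a block, a plain variance model, each library left out, 3 libraries left out, and the authors' test. Tables and figures were made in Python 3.11.15 using numpy 2.4.6, pandas 2.3.3 and matplotlib 3.10.9.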

Additional observations from a re-analysis of the deposited data

How the results depend on the processing

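No pathway gene was called under any alternative with a test, where the 13 genes with values in every library had adjusted p-values of 0.13 or above, and their log2 change kept its sign under every alternative for 8 of the 13. The log2 change of Tab2 was 0.00658 with upper quartile scaling and ranged from -0.0648 to 0.00636 with single libraries left out. That of Traf4 ranged from -0.0389 to 0.135. With only knockout libraries 2 and 3 and wildtype library 2, log2 changes were -0.171 for Traf4, -0.145 for Tradd, -0.071 for Birc3 and -0.0375 for Relb, the median of the 40 was -0.0936, and 7 were above 0. A limma test on these 3 libraries, chosen after seeing the data and assuming that the lone wildtype library varies like the knockout libraries, called 0 of the 40 genes and 130 over all genes, and gave 4 of the 40 (10%) and 6.3% of all tested genes an unadjusted p under 0.05. With the skin covariate 14 log2 changes were above 0. Leaving out single libraries moved the number of separated pathway genes between 6 and 14, the number at an unadjusted p under 0.05 between 1 and 7, and the calls over all genes between 21 (without knockout library 3) and 74 (without wildtype library 2) in place of 42, with 27 without wildtype library 1 and 22 without wildtype library 3. The separated share of all tested genes ran from 26.4% to 45.4% in the same fits. The share at an unadjusted p under 0.05 over all tested genes was 8.52% without wildtype library 3 (1 pathway gene), 8.3% without wildtype library 1 (2 pathway genes) and 23.2% without wildtype library 2 (7 pathway genes). All-gene calls were 22 without small RNA genes, 26 with the skin covariate and 24 with the replicate block. With the replicate block 1 pathway gene, Nfkbie, had an unadjusted p under 0.05, in place of 4, and the share over all tested genes was 8.53% in place of 16.2%. Same-numbered libraries deviated from their genotype means with correlations of -0.375, -0.337 and 0.209. The labels do not say whether the numbers pair mice. These correlations cannot decide it, since libraries also differed in marker RNA of several tissues. The authors' deposited test called 240 named rows (1.04%) at a q-value under 0.05, with 0 of the 40 genes among them. Its unadjusted p was under 0.05 for 0 of the 40. The share of all named rows at that p is not given here, so this 0 has no comparison. The causes of these shifts were not tested. In the authors' deposited test Traf3 has a fold change listed at 0 and may not have been tested. Against the lone wildtype library 30 of the 40 genes (75%) and 68.3% of all tested genes were separated. Depth per library is unknown, and 3 libraries per genotype limit the precision.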
